A study of Mus musculus with 8 samples.

Results

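The genes described here encode the β subunits of the sodium-potassium pump (Atp1b1, Atp1b2 and Atp1b3) and the plasma membrane calcium pumps (Atp2b1, Atp2b2, Atp2b3 and Atp2b4). They were chosen by their symbols, and all 7 were found among the 43472 gene symbols of the count files, of which 12516 had enough counts to be tested. The neural retinas of 3 weeks-old (postnatal day 21) mice on a C57Bl6/J background were compared between 4 controls and 4 Mfp2-/- mice. The controls were 3 Mfp2+/+ mice and 1 Mfp2+/- mouse, which is control mouse 2 of the numbering 1 to 4 that the labels give in each group. Mfp2-/- mice lack the peroxisomal β-oxidation enzyme MFP2 in all tissues and were bred from heterozygous pairs. The 2 neural retinas of a mouse made up 1 library, so that all cell types of the tissue were measured together.

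The sodium-potassium pump exchanges intracellular sodium for extracellular potassium at the cost of ATP. Its α subunit does the transport, and a β subunit is needed for the pump to mature and reach the cell membrane. Photoreceptors rely on it in their inner segments, where it removes the sodium that enters the outer segments in the dark. Plasma membrane calcium pumps expel calcium from the cell and are stimulated by calmodulin. From general knowledge of the retina, Atp1b2 was classed with photoreceptors and Müller glia, and Atp1b1, Atp2b2 and Atp2b3 with neurons of the inner retina. No gene was taken to be confined to the cells of its class. Atp1b3, Atp2b1 and Atp2b4 were put in neither class, which does not mean that photoreceptors lack them. These classes were not tested here, as whole retinas do not show which cells a transcript comes from.

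The libraries were of the QuantSeq type, which reads the 3′ end of transcripts, so that counts do not rise with transcript length. Levels of different genes are set side by side on this ground. How well the annotation covers the 3′ end of each gene was not checked. The libraries held 1895485 to 3226187 counts in genes. Hsd17b4, which encodes MFP2, had 47, 20, 78 and 37 counts in control mice 1 to 4 and 1, 0, 1 and 0 in Mfp2-/- mice 1 to 4. The 11 rod markers listed from general knowledge were all lower in Mfp2-/- retinas (median log2 fold change -4.38), and their summed level went from 43650 to 53470 CPM (counts scaled to a common library size) in controls to 1475 to 2120 CPM in Mfp2-/- retinas. Fewer cells of a type and less RNA per cell cannot be told apart in such libraries. Mfp2-/- mice 2 and 3 stood apart from the other libraries, with 10.8% and 15.7% of reads outside annotated genes against 22.6% to 29.9% in the other 6. The 4 lens markers, a sign of lens tissue in a dissected retina, were also highest in these 2 libraries, with summed levels of 4815 and 2703 CPM, against 1583 and 265.9 CPM in Mfp2-/- mice 1 and 4 and 257 to 1109 CPM in controls. Where a call changed without these 2 libraries, or a fold moved by over 1.5 times, the value without them is given too.

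Of the 7 pump genes, 5 were upregulated and 1 was downregulated in Mfp2-/- retinas, by edgeR's quasi-likelihood test at an adjusted p under 0.05 over all genes tested. Of all 12516 genes tested, 27.0% passed, 13.8% upward and 13.2% downward. The genes that rose were Atp1b1, Atp1b3, Atp2b2, Atp2b3 and Atp2b4, the gene that fell was Atp1b2, and Atp2b1 did not pass. In the 6 genes that passed, the 4 Mfp2-/- values did not overlap the 4 control values, which was so in 30.9% of all genes tested. The median log2 fold change of the 7 genes was 0.54, against -0.0039 for all genes tested. With upper-quartile factors or with total counts alone, the median of all genes shifted to 0.12 and upward calls took 64.2% and 65.2% of all calls, against 51.2% with the TMM factors used. With upper-quartile factors the decrease of Atp1b2 was smaller and just missed the threshold (log2 fold change -0.41, adjusted p = 0.0558 in edgeR's test).

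**Figure D1:**
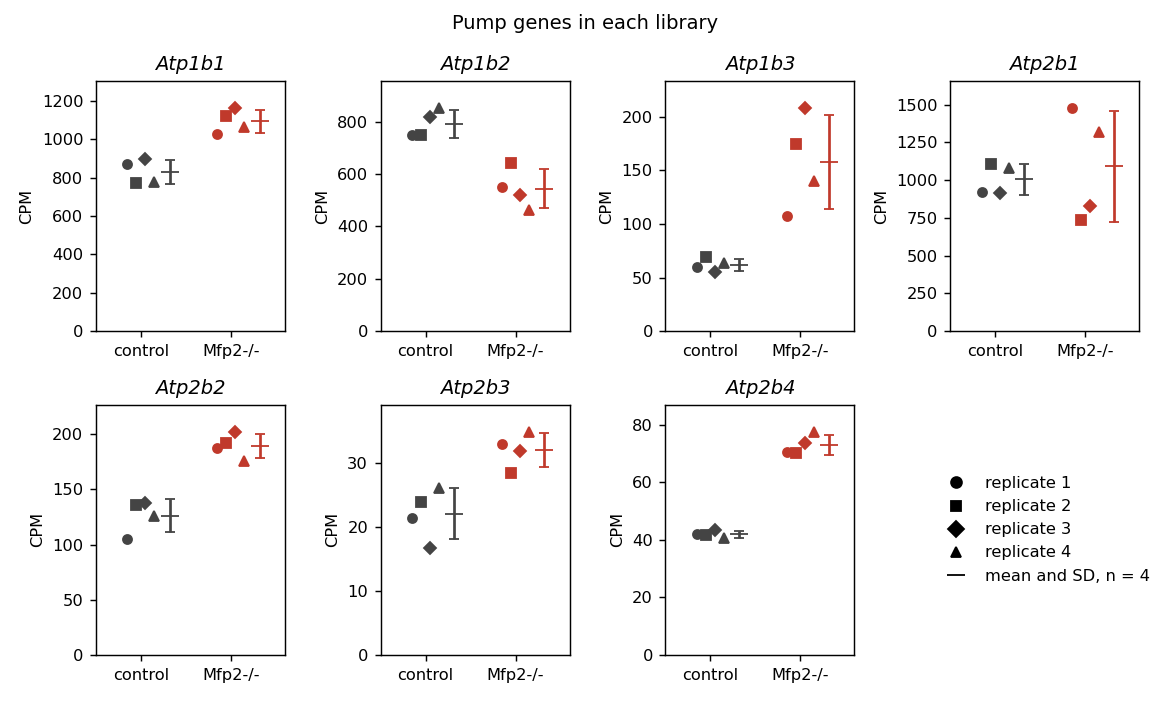
CPM of each pump gene in each library; every symbol is 1 mouse, its shape gives the replicate number, and horizontal marks with bars show means and SD (n = 4). Mfp2-/- values are lower than every control for Atp1b2, higher for Atp1b1, Atp1b3, Atp2b2, Atp2b3 and Atp2b4, and on both sides of the controls for Atp2b1.

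Promoter sequences were available in the RefSeq table (GRCm38.p6) for 5 of the 7 genes, all but Atp1b2 and Atp2b3, in 9 windows of 300 bases from 250 bases before to 50 after a transcript start. The following 4 are shown as examples that set genes that rose (Atp1b1, Atp1b3 and Atp2b4) beside the one that was not called (Atp2b1). The windows of Atp2b2, which also rose, are not shown. Each is written 5′ to 3′ on the strand of the gene. Capitals mark the GC box GGGCGG (or CCGCCC on the other strand) and the CCAAT box CCAAT (or ATTGG), and neighbouring GC boxes may overlap.
Atp1b1 (chr1:164458306-164458605, minus strand): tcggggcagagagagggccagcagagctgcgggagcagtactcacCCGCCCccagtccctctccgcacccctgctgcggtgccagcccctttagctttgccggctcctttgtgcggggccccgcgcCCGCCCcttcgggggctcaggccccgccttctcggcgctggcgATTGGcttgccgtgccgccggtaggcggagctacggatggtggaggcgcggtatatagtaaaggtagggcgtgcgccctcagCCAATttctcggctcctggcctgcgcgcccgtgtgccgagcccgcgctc
Atp1b3 (chr9:96364382-96364681, minus strand): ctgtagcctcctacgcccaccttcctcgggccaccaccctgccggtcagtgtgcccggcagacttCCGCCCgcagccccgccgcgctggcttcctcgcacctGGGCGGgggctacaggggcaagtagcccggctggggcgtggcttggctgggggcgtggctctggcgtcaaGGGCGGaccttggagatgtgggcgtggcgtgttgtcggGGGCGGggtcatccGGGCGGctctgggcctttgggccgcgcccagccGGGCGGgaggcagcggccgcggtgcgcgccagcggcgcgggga
Atp2b1 (chr10:98914392-98914691, plus strand): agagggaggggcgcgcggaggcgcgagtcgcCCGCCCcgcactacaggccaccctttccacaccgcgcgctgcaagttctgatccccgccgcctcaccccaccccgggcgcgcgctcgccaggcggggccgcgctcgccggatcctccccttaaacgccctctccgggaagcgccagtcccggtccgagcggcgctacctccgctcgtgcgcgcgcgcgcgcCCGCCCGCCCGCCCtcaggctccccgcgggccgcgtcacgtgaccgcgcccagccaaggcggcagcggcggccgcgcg
Atp2b4 (chr1:133753698-133753997, minus strand): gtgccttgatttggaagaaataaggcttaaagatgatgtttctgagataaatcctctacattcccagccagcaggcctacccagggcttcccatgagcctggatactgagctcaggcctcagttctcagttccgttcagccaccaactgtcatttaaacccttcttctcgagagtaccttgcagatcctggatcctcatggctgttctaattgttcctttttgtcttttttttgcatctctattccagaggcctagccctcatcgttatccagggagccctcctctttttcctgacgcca
The Atp1b1 window held 2 GC boxes and 2 CCAAT boxes, the upstream of the 2 Atp1b3 windows held 6 GC boxes, and the upstream of the 2 Atp2b1 windows held 4. The Atp2b4 window held neither motif and had 47.7% G and C, against 71.0%, 76.0% and 79.3% in the windows of Atp1b1, Atp1b3 and Atp2b1 and a median of 52.7% over all 32851 windows of the table. The Atp2b2 windows had 58.7%, 54.0% and 72.7% G and C, with 2, 0 and 3 GC boxes and no CCAAT box. Of all windows, 35.7% held a GC box and 37.4% a CCAAT box. The letters TAATCC (or GGATTA), a motif of the photoreceptor factor CRX, occurred in 7.06% of all windows and in 0 of the 9 windows of these 5 genes. The E-box CACGTG occurred in 7.15% of all windows, and once in each of 2 windows of the pump genes, the upstream window of Atp2b1 and the downstream window of Atp1b3. Such matches describe the letters of these windows and not the binding of a factor. The Atp2b4 start used by RefSeq lies inside the longer gene of the GENCODE annotation.

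The β subunit genes of the sodium-potassium pump changed in opposite directions. Atp1b2, also known as an adhesion molecule on glia (chromosome 11, 69599736 to 69605942 of GRCm38), was at 749, 748, 819 and 853 CPM in control mice 1 to 4 and at 550.3, 641, 519.7 and 464 CPM in Mfp2-/- mice 1 to 4. All Mfp2-/- retinas were below all controls, with Mfp2-/- mouse 2 nearest to them. The decrease was 1.46-fold (log2 fold change -0.54, standard error 0.13, adjusted p = 0.0130 in edgeR's test).

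Atp1b1, the β subunit gene found most widely in neurons (chromosome 1, 164437109 to 164458355 of GRCm38), was at 872, 773, 895 and 775 CPM in control mice 1 to 4 and at 1030, 1120, 1164 and 1063 CPM in Mfp2-/- mice 1 to 4. The groups did not overlap, and the increase was 1.32-fold (log2 fold change 0.40, standard error 0.12, adjusted p = 0.0283 in edgeR's test). Its call was lost without control mouse 2 or 4 or Mfp2-/- mouse 3 (adjusted p = 0.0942, 0.0778 and 0.0899 in edgeR's test). Without both Mfp2-/- mice 2 and 3 the log2 fold change was 0.33 (adjusted p = 0.0685). Nme7 on the other strand shares exon bases with Atp1b1 and had 217 counts in all libraries together, against 20574 for Atp1b1.

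Atp1b3 (chromosome 9, 96332655 to 96364442 of GRCm38) had the largest fold change of the pump genes. It was at 59.7, 68.8, 55.2 and 63.4 CPM in control mice 1 to 4 and at 107.6, 175, 208 and 140.1 CPM in Mfp2-/- mice 1 to 4. The increase was 2.55-fold (log2 fold change 1.35, standard error 0.20, adjusted p = 5.97e-04 in edgeR's test), with the highest levels in Mfp2-/- mice 2 and 3, the libraries with the fewest reads outside genes and the most lens marker RNA. The part of either in this increase was not tested. Without these 2 libraries the log2 fold change was 1.00 (adjusted p = 1.29e-04 in edgeR's test).

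As shares of the summed counts of the 3 β subunit genes, which do not depend on the scaling of the libraries, Atp1b2 made up 47.1% ± 2.46 in control and 30.2% ± 3.02 in Mfp2-/- retinas (n = 4 mice per group, SD). Atp1b1 made up 49.2% ± 2.64 and 61.0% ± 2.44, and Atp1b3 3.69% ± 0.501 and 8.70% ± 1.91. Control retinas thus held Atp1b1 and Atp1b2 at similar levels, with ratios on the log2 scale from -0.14 to 0.22, whereas Mfp2-/- retinas held more Atp1b1 than Atp1b2 in every library, with ratios from 0.81 to 1.20. The summed level of the 3 genes went from 1683 ± 73.7 CPM (control) to 1796 ± 138 CPM (Mfp2-/-), with overlapping groups.

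Whether members of a family changed unequally was tested on the log2 ratio of their counts within each library, in 9 pairs. The ratio of Atp1b1 to Atp1b2 was 1.94-fold higher in Mfp2-/- retinas (difference 0.95 on the log2 scale, exact permutation test, two-sided, p = 0.0286, adjusted p = 0.0643 over 9 pairs). The ratio of Atp1b2 to Atp1b3 differed by -1.86 and that of Atp1b1 to Atp1b3 by -0.91 on the log2 scale, with the same p. In all 3 pairs the groups did not overlap. With 4 mice against 4, 0.0286 is the smallest p that this test can give. The 4 of 9 pairs without overlap were at this p, and their adjusted p was 0.0643. So 0 of the 9 pairs passed 0.05 after adjustment, which says little, as the adjusted test could hardly pass.

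**Figure D2:**
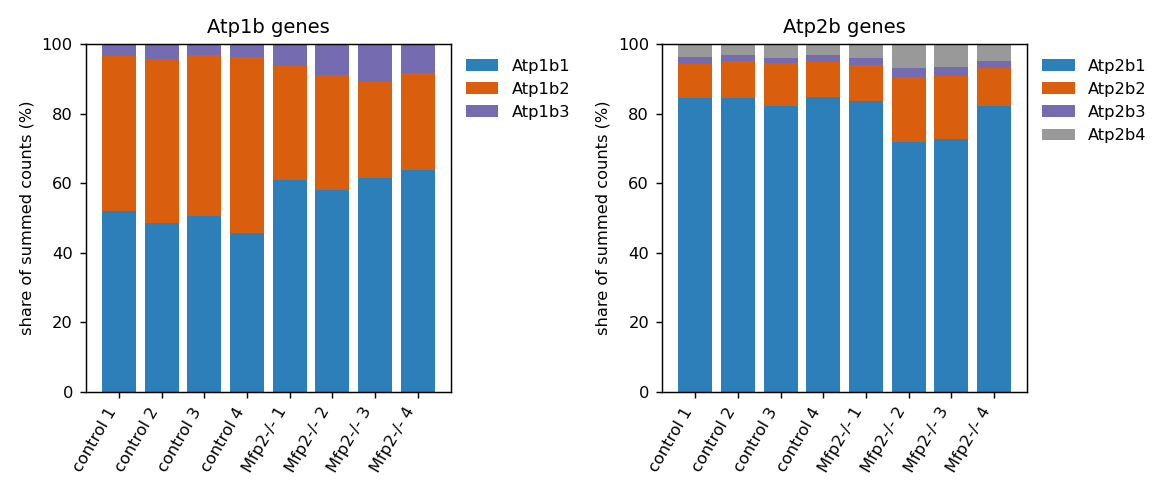
Share of each gene in the summed counts of the 3 Atp1b genes (left) and of the 4 Atp2b genes (right), in percent, for each library. The share of Atp1b2 is 44.6% to 50.4% in controls and 27.5% to 33.1% in Mfp2-/- retinas, and the share of Atp2b1 is lowest in Mfp2-/- mice 2 and 3.

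Among the calcium pumps, the less abundant genes rose. Atp2b4 (chromosome 1, 133699457 to 133801041 of GRCm38) was at 41.9, 41.6, 43.5 and 40.8 CPM in control mice 1 to 4 and at 70.4, 70.1, 73.6 and 77.6 CPM in Mfp2-/- mice 1 to 4. Both groups were narrow, with a coefficient of variation of 2.78% in controls and 4.77% in Mfp2-/- retinas, and they lay far apart. These values rest on 92 to 135 counts per control library and 138 to 219 per Mfp2-/- library. A small spread at such counts does not show how much the mice differ. The increase was 1.74-fold (log2 fold change 0.80, standard error 0.11, adjusted p = 4.85e-04 in edgeR's test).

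Atp2b2 (chromosome 6, 113743831 to 114042613 of GRCm38), a neuronal calcium pump gene that is also needed for hearing, was at 105, 136, 138 and 126 CPM in control mice 1 to 4 and at 188, 192, 202 and 176 CPM in Mfp2-/- mice 1 to 4. It rose 1.5-fold without overlap of the groups (log2 fold change 0.59, standard error 0.13, adjusted p = 0.00709 in edgeR's test).

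Atp2b3 (chromosome X, 73503086 to 73571005 of GRCm38), a calcium pump gene of neurons, was the lowest of the family. It had 59, 53, 52 and 75 counts in control mice 1 to 4 and 93, 56, 95 and 95 counts in Mfp2-/- mice 1 to 4, or 21.5, 24.0, 16.8 and 26.1 CPM against 32.9, 28.5, 31.9 and 34.9 CPM. The increase was 1.46-fold (log2 fold change 0.54, standard error 0.17, adjusted p = 0.0354 in edgeR's test), and the gap between the highest control and the lowest Mfp2-/- retina was small. Its call was lost without control mouse 1, 2 or 3 or Mfp2-/- mouse 1, 3 or 4 (adjusted p 0.0552 to 0.0879 in edgeR's test), with log2 fold changes of 0.43 to 0.58.

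Atp2b1 (chromosome 10, 98914406 to 99026143 of GRCm38), the most abundant of the calcium pump genes, was at 918, 1107, 918 and 1078 CPM in control mice 1 to 4 and at 1478, 737, 825 and 1320 CPM in Mfp2-/- mice 1 to 4. Mfp2-/- mice 1 and 4 were above all controls and Mfp2-/- mice 2 and 3 below them, so that the coefficient of variation was 33.4% in Mfp2-/- retinas against 10.1% in controls. No change was detectable over all libraries (log2 fold change 0.12, standard error 0.22, adjusted p = 0.723 in edgeR's test). Without both Mfp2-/- mice 2 and 3 it was upregulated (log2 fold change 0.47, adjusted p = 0.0181 in edgeR's test), and without Mfp2-/- mouse 1 its sign turned (log2 fold change -0.05, adjusted p = 0.877). The share of reads outside genes was 27.5% and 28.0% in Mfp2-/- mice 1 and 4, against 10.8% and 15.7% in mice 2 and 3. Lens markers summed to 1583 and 265.9 CPM in the former and to 4815 and 2703 CPM in the latter. The part of these differences in the levels of Atp2b1 was not tested.

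**Figure D3:**
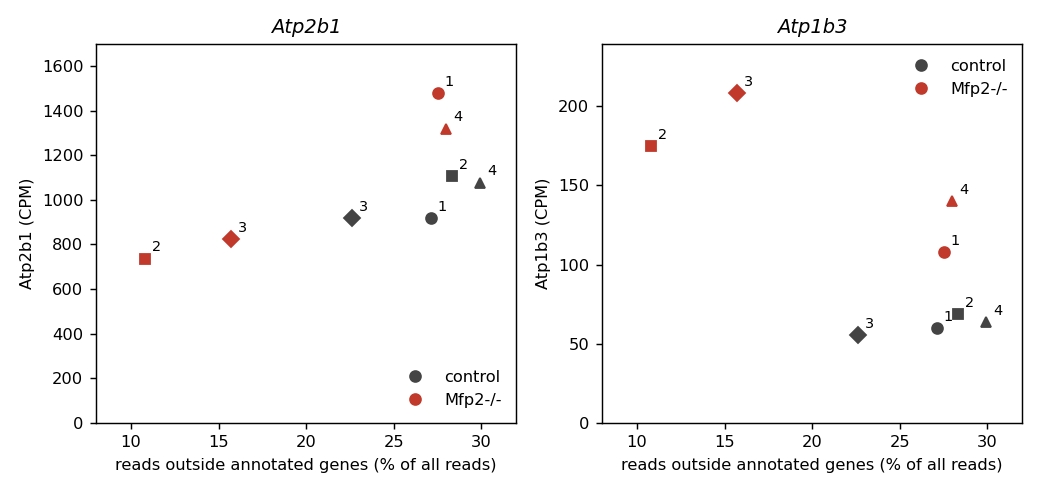
CPM of Atp2b1 (left) and Atp1b3 (right) against the percentage of reads outside annotated genes, 1 point per library, with replicate numbers. Mfp2-/- mice 2 and 3, at 10.8% and 15.7%, have the lowest Atp2b1 and the highest Atp1b3 levels of the Mfp2-/- retinas.

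Atp2b1 made up 84.0% ± 1.20 of the summed counts of the 4 calcium pump genes in control and 77.5% ± 6.11 in Mfp2-/- retinas (n = 4 mice per group, SD), with 83.5% and 82.1% in Mfp2-/- mice 1 and 4 and 71.7% and 72.8% in mice 2 and 3. Atp2b2 followed with 10.6% ± 1.21 and 14.5% ± 4.33. The ratio of Atp2b1 to Atp2b4 differed by -0.74 on the log2 scale without overlap of the groups (exact permutation test, two-sided, p = 0.0286, adjusted p = 0.0643 over 9 pairs). Without Mfp2-/- mice 2 and 3 this difference was -0.34. Between the 3 genes that rose, log2 ratios differed by 0.04 for Atp2b2 to Atp2b3, -0.20 for Atp2b2 to Atp2b4 and -0.25 for Atp2b3 to Atp2b4 (exact permutation tests, two-sided, p = 0.83, 0.114 and 0.200). In each of these 3 pairs the groups overlapped, and the pooled SD of the log2 ratio was 0.28, 0.15 and 0.23.

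By level, the pump genes of control retinas fell into an abundant and a less abundant set. Atp2b1 (1005 ± 102 CPM) stood above Atp1b1 (829 ± 63.8 CPM) and Atp1b2 (792 ± 52.6 CPM), whose libraries overlapped. Then came Atp2b2 (126 ± 14.9 CPM), Atp1b3 (61.8 ± 5.76 CPM), Atp2b4 (41.9 ± 1.17 CPM) and Atp2b3 (22.1 ± 4.02 CPM), each separate from the next. In Mfp2-/- retinas Atp1b1 (1094 ± 59.4 CPM) and Atp2b1 (1090 ± 364 CPM) overlapped, and Atp1b2 (544 ± 74.0 CPM) stood below both. Atp2b2 (189.5 ± 10.8 CPM) and Atp1b3 (158 ± 43.4 CPM) also overlapped, above Atp2b4 (72.9 ± 3.48 CPM) and Atp2b3 (32.1 ± 2.71 CPM). These levels are means ± SD of 4 mice per group.

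The partners of the sodium-potassium pump did not move together. Of the α subunit genes, 3 were tested, of which 1 rose and 0 fell (median log2 fold change 0.69). Agrn, which encodes agrin, a ligand of the pump in neurons, rose (log2 fold change 0.60, adjusted p = 0.0420). FXYD proteins are small membrane proteins that modulate the pump. Of 7 FXYD genes 5 were tested, of which 3 rose and 1 fell (median log2 fold change 0.84). Fxyd1, the phospholemman gene, averaged 35.4 ± 8.23 CPM over controls and 67.2 ± 11.5 CPM over Mfp2-/- mice (SD, n = 4; log2 fold change 0.92, adjusted p = 0.00539 in edgeR's test). Fxyd3 was barely detected in controls, at 0.36 to 1.61 CPM, and was at 3.68 to 11.7 CPM in Mfp2-/- retinas (log2 fold change 2.87, adjusted p = 0.00352). Without Mfp2-/- mice 2 and 3, the mice with its highest levels, the log2 fold change of Fxyd3 was 2.07 (adjusted p = 0.0220). Fxyd7, a neuronal member, rose (log2 fold change 0.84, adjusted p = 0.0251), Fxyd6 fell (log2 fold change -0.48, adjusted p = 0.0241), and Fxyd5 did not pass (log2 fold change 0.79, adjusted p = 0.175).

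Nptn and Bsg encode neuroplastin and basigin, membrane proteins that are auxiliary subunits of the plasma membrane calcium pumps. Neither passed the test (log2 fold change 0.05 and -0.13, standard error 0.12 for both, adjusted p = 0.802 and 0.446 in edgeR's test). Of the calmodulin genes, Calm2 rose (log2 fold change 0.47, adjusted p = 0.0212) and Calm3 did not pass (log2 fold change 0.57, adjusted p = 0.0658). Calm3 was called without Mfp2-/- mouse 1 or 4 (adjusted p = 0.0431 and 0.0354), with upper-quartile factors (adjusted p = 0.0365), with total counts alone (adjusted p = 0.0305) and by DESeq2 (adjusted p = 0.0461). Its log2 fold change was 0.35 without Mfp2-/- mouse 2 and 0.21 without Mfp2-/- mice 2 and 3 (adjusted p = 0.124 and 0.332 in edgeR's test). Of the calcium pumps of internal membranes, Atp2a2 of the endoplasmic reticulum did not pass (log2 fold change 0.07, adjusted p = 0.708) and Atp2c1 of the Golgi fell (log2 fold change -0.46, adjusted p = 0.0461). Several of these partner genes lay near the threshold. When 1 library was left out, some calls were lost, with the sign kept. These were Fxyd6 without control mouse 1, 2 or 3 or Mfp2-/- mouse 1, 3 or 4, and Fxyd7 without control mouse 1, 2 or 4 or Mfp2-/- mouse 1 or 3. Calm2 lost its call without control mouse 2, 3 or 4 or Mfp2-/- mouse 3. Agrn did so without any 1 control or Mfp2-/- mouse 1 or 4, and Atp2c1 without any 1 control or Mfp2-/- mouse 2, 3 or 4. The adjusted p of these lost calls ran from 0.05 to 0.117 in edgeR's test. Fxyd6 and Atp2c1 also lost theirs with upper-quartile factors (adjusted p = 0.102 and 0.0976) and with total counts alone (adjusted p = 0.0776 and 0.115). Without both Mfp2-/- mice 2 and 3, Fxyd7 and Atp2c1 lost their calls (adjusted p = 0.0867 and 0.107).

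Exchangers, which move calcium in return for sodium, showed the widest range. Those of the cell membrane expel calcium and draw on the gradient made by the sodium-potassium pump. Slc24a1, the exchanger gene of rods, was at 1051 to 1377 CPM in controls and, after loss of MFP2, at 22.9 to 55.2 CPM (log2 fold change -4.99, standard error 0.28, adjusted p = 5.56e-07 in edgeR's test). Of 8 exchanger genes tested it alone fell, and 3 rose. These were Slc24a3 (329 ± 6.66 to 567.5 ± 78.9 CPM, n = 4, SD; log2 fold change 0.78, adjusted p = 0.00153), Slc8a1 (log2 fold change 0.91, adjusted p = 0.00907) and Slc24a5 (log2 fold change 1.92, adjusted p = 8.85e-04), an exchanger gene of pigment cells, while Slc8a2 did not pass (log2 fold change 0.66, adjusted p = 0.0741). Slc8a2 was called with upper-quartile factors (adjusted p = 0.0370) and with total counts alone (adjusted p = 0.0359). Of 8 genes for the entry of cations into photoreceptors 6 fell and 0 rose, among them the rod channel genes Cnga1 (log2 fold change -4.84, adjusted p = 9.94e-06) and Cngb1 (log2 fold change -3.78, adjusted p = 3.31e-07). Cacnb2 (log2 fold change -1.92, adjusted p = 3.12e-04) and Cacna1f (log2 fold change -1.44, adjusted p = 3.02e-04), subunits of the calcium channel of photoreceptor terminals, fell as well. The log2 fold change of Atp1b2, -0.54, stood beside a median of -1.68 over these 8 genes and of -0.0039 over all genes tested.

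**Figure D4:**
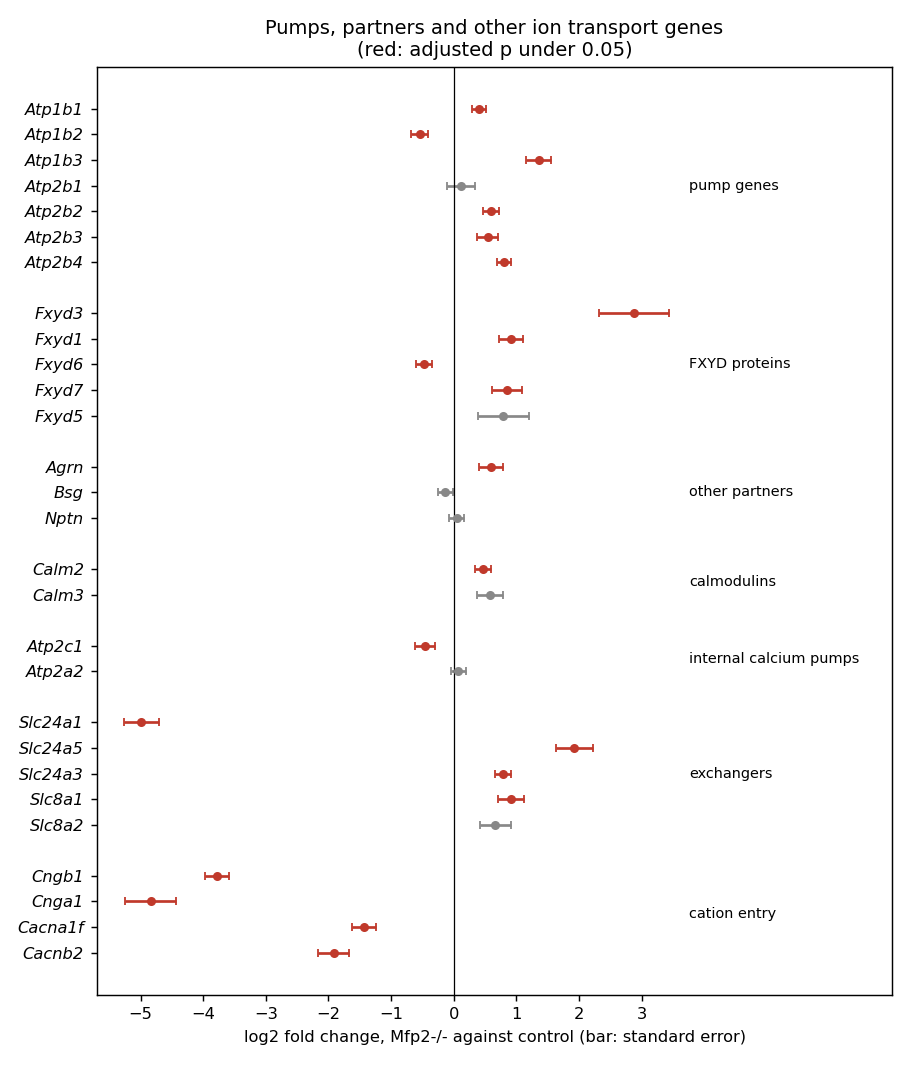
Log2 fold change (Mfp2-/- over control) of the pump genes and, per list, of the genes named in the text; bars are standard errors and red marks an adjusted p under 0.05. Atp1b2 lies at -0.54 and the other pump genes between 0.12 and 1.35, while Slc24a1 and Cnga1 lie below -4.

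Markers of the cell types moved in both directions beside these genes, and their part in the changes of the pump genes was not tested. Of 8 cone markers 6 fell and 1 rose, with summed levels of 1408 to 1601 CPM in control and 726.6 to 776 CPM in Mfp2-/- retinas. Of the inner retinal markers, 6 of 8 for bipolar, 2 of 7 for amacrine and 4 of 8 for ganglion cells rose and 0 fell, and 0 of 5 for horizontal cells rose and 1 fell. Summed levels were 1611 to 1901 and 2040 to 2806 CPM for bipolar, 1435 to 1486 and 1711 to 1925 CPM for amacrine, 1389 to 1858 and 2091 to 2485 CPM for ganglion and 350.3 to 425 and 202 to 374 CPM for horizontal cells, in control and Mfp2-/- retinas respectively. Of 8 Müller glia markers 5 rose and 0 fell, from 3705 to 4301 CPM in control to 4540 to 6146 CPM in Mfp2-/- retinas, and all 6 tested microglia markers rose, from 40.3 to 51.2 to 178 to 283.5 CPM. The Müller glia sum hid a split. Glul, its most abundant marker in controls, went from a mean of 2300 to 1604 CPM without passing, and Apoe from 603 to 1679 CPM. Of the astrocyte markers 2 of 3 rose (47.5 to 68.4 and 155 to 233 CPM), and of the endothelial markers 1 of 5 (256 to 305 and 432 to 466.5 CPM). None of 4 tested markers of the retinal pigment epithelium passed (181.5 to 352.5 and 273 to 477 CPM). Of the lens markers 1 of 4 rose (257 to 1109 and 266 to 4815 CPM). No marker was at 0 in all libraries.

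The genes whose levels followed those of a pump gene most closely over the 8 libraries were found by Pearson's r of log2 CPM among 9347 genes with a mean of at least 10 CPM. The libraries fall into 2 groups, so that any gene that differs between them can have a high r. Closest to Atp1b2 were Rax (r = 0.994), a homeobox gene of photoreceptors and Müller glia, Fance (r = 0.992) and Hs3st3b1 (r = 0.987). Rgs12, Tbx2 and C1ql1 were closest to Atp1b1 (r = 0.991 to 0.995), and Diras2, Psap and Slc41a3 to Atp1b3 (r = 0.985 to 0.989). For Atp2b2 these were Thbs1, Trio and Slc39a1 (r = 0.988 to 0.996), for Atp2b3 Psmg4, B3glct and Pcdhb7 (r = 0.970 to 0.987) and for Atp2b4 Timp3, Tnfrsf1a and Tgfb2 (r = 0.993 to 0.994). Atp2b1 was followed by Snhg11, Dnajb4 and Epha5 (r = 0.969 to 0.972), with log2 fold changes of 0.42, 0.14 and 0.20.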

How the data were processed

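The deposited values were raw counts of reads per gene symbol, made by the authors from QuantSeq 3′ libraries of 4 control and 4 Mfp2-/- neural retinas. The submitters' processing notes name the genome mm10 and the tools HTSeq 2.7.14, SAMtools 1.5, HISAT2 and FastQC 0.11.7. For the annotation and the use of strand nothing is given in the sources used here. Another table of the whole series with the same counts was not used. Groups came from the sample labels.

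The main tool was edgeR 4.0.16 under R 4.3.3. Genes were kept by filterByExpr, libraries were scaled with TMM factors, and Mfp2-/- and control retinas were compared by its quasi-likelihood test, adjusting p-values for 12516 genes by Benjamini-Hochberg. Standard errors were derived from the log2 fold change and the F statistic. CPM used the same factors, and log2 CPM a prior count of 2. Ratios within libraries used a pseudocount of 0.5 and an exact permutation test. Rows for reads outside genes (10.8% to 29.9% of reads for those in no feature) entered no test. Intervals were not computed. The p-values of edgeR's test set the difference between groups against the variation between mice. Those of the permutation test set it against all regroupings of the mice. The test of edgeR was checked on simulated counts, and the permutation test on simulated log2 ratios. Alternatives used limma 3.58.1 and DESeq2 1.42.0, among 20 settings.

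The genes and lists were chosen with earlier results of these data known. The text names all 7 members and Hsd17b4, and per list of partner genes every tested gene, or the 5 with the smallest adjusted p where more than 5 were tested. For each member it also names the 3 genes with the highest r. Of the cell type markers it also names Gfap, Kdr, Glul and Apoe, chosen after their weight in the sums of their lists was seen. Some genes that this rule also takes, the α subunit genes among them, are not reported here. Gene positions are those of GENCODE on GRCm38.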

Additional observations from a re-analysis of the deposited data

How the results depend on the processing

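Over 20 other settings, Atp1b3, Atp2b2 and Atp2b4 kept their direction and call in all, with log2 fold changes of 1.00 to 1.53, 0.50 to 0.71 and 0.78 to 0.92. Atp1b2 kept its call in 19 and lost it with upper-quartile factors (log2 fold change -0.413, adjusted p = 0.0558), which left 0 genes called lower. Atp1b1 was called in 14 and Atp2b3 in 12. Without the filter on low counts, which tests more genes, both lost their calls (log2 fold change 0.386 and 0.528, adjusted p = 0.0866 and 0.0673), which left 3 genes called higher. Leaving out each library in turn gave log2 fold changes of 0.361 to 0.454 for Atp1b1, -0.632 to -0.455 for Atp1b2, 1.19 to 1.53 for Atp1b3, 0.502 to 0.639 for Atp2b2, 0.433 to 0.644 for Atp2b3, 0.786 to 0.837 for Atp2b4 and -0.0489 to 0.264 for Atp2b1, the last turning sign without Mfp2-/- mouse 1, and 3 to 5 genes called higher (3 without control mouse 2 or Mfp2-/- mouse 3). Without both Mfp2-/- mice 2 and 3, Atp1b1 was at 0.332 (adjusted p = 0.0685), Atp2b1 at 0.473 (adjusted p = 0.0181), and the log2 ratios of Atp2b1 to Atp2b2, Atp2b3 and Atp2b4 differed between groups by -0.0551, -0.153 and -0.335, against -0.53, -0.49 and -0.74 with them. Their cause was not tested. The other ratios moved by less than 1 SD under every setting.

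The deviations of same-numbered libraries from their group means correlated at 0.08, -0.16, 0.25 and 0.21, and not every library correlated best with its own number, so the numbers were not taken to pair the mice. With the replicate number as a block, Atp1b1 (0.402, adjusted p = 0.0724) and Atp2b3 (0.555, adjusted p = 0.0617) were not called, which left 3 members called higher. Calm2, Agrn and Atp2c1 also lost their calls (adjusted p = 0.055, 0.0875 and 0.0869). Over all genes the block gave 1355 higher and 1490 lower calls, against 1728 and 1649 without it. The exact test of the ratios cannot reach 0.05 with 3 mice against 4 or with 4 pairs, so those settings gave values only.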
